A study of Mus musculus with 6 samples.

Results

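Fibroblast growth factors (FGFs) and their receptors are described here across pools of mouse dorsal root ganglia, the clusters of sensory neuron bodies and glia beside the spinal cord. The 10 genes were taken by symbol from the 55809 gene symbols counted: the secreted ligands Fgf3, Fgf1, Fgf2, Fgf7 and Fgf9, the FGF homologous factors Fgf13 and Fgf14, and the receptors Fgfr1, Fgfr2 and Fgfr3. Fgf3 was selected on its fold change and adjusted p between the groups in these same libraries, so its difference is a description and supports nothing further. The other 9 were added by name as its relatives and receptors. The prenatal stress (PS) group was 3 pools of ganglia from offspring of dams that had been restrained in tubes under bright light in late gestation, in 3 sessions a day of 30 min each. The control (CT) group was 3 pools from offspring of undisturbed dams. Each pool held 3 C57BL6J mice at 8 weeks of age, with no transgene or other treatment in either group. The stress ran over embryonic days 13 to 18 by the protocol, with slightly later days in the series design. Mice of both sexes were used, and neither the sex nor the litter behind a pool is given, so p-values measure the spread between pools.

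Secreted FGFs bind receptor tyrosine kinases of the Fgfr family together with heparan sulfate chains on the cell surface, and the receptors signal through the adaptor Frs2 to the MAP kinase cascade. Sprouty proteins and Dusp6 dampen that signal, and the ETS factors Etv4 and Etv5 are widely used readouts of it. The FGF homologous factors stay inside the cell, where they bind voltage-gated sodium channels. In sensory ganglia the family is known for roles in neuron survival, axon growth and excitability.

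The libraries held 51.7 to 77.6 M gene counts in PS pools and 65.0 to 87.4 M in CT pools. Levels are CPM, gene counts scaled to a common library size with TMM factors, and differences are log2 fold changes of PS over CT from edgeR's quasi-likelihood test, with Benjamini-Hochberg adjusted p over the 20146 genes tested and a threshold of 0.05. All 8 sensory neuron markers were found in every pool, at a summed 7566 to 7834 CPM in PS pools and 7917 to 8086 CPM in CT pools. Summed spinal cord markers differed widely within both groups, at 36.7, 211 and 66.6 CPM in PS pools 1 to 3 and 30.4, 177 and 150 CPM in CT pools 1 to 3. PS pool 2 and CT pools 2 and 3 were thus high, and the motor neuron factor Mnx1 was at 0 in 1 pool. Skeletal muscle markers summed to 1967 CPM in CT pool 3 and to 12.7 to 39.8 CPM in the other 5 pools. In bulk ganglia, fewer cells of a type and less RNA per cell cannot be told apart.

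Fgf3 is a secreted ligand of the Fgf7 subfamily, known in mouse for its part in inner ear and hindbrain development. It was far lower in the PS pools. It had 6, 12 and 6 counts in PS pools 1 to 3, against 70, 46 and 74 counts in CT pools 1 to 3. As levels these were 0.0775, 0.182 and 0.116 CPM in the PS pools, against 1.01, 0.709 and 0.849 CPM in the CT pools. Every PS pool was low and the groups did not overlap. The mean was 0.125 ± 0.0529 CPM in PS pools and 0.856 ± 0.15 CPM in CT pools (SD, n = 3 pools each), a log2 fold change of -2.77 ± 0.31 (SE; edgeR adjusted p = 0.0381). The 95% interval of the PS over CT ratio was 0.09 to 0.24. These are the values that selected it. Across all genes tested, 26 (0.129%) were called, 9 (0.0447%) lower and 17 (0.0844%) higher. Without the low-count filter 0.139% were called, Fgf3 among them. Fgf3 entered the test through the CT pools, since 1 of 3 PS pools and all 3 CT pools reached the low-count cutoff of 0.148 CPM. The call was lost with the replicate number as a block (-2.77, edgeR adjusted p = 0.091) and when any 1 of the 6 pools was left out (adjusted p from 0.0627 without PS pool 2 to 0.174 without PS pool 1). The log2 fold change without 1 pool ranged from -3.17 to -2.49.

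**Figure D1:**
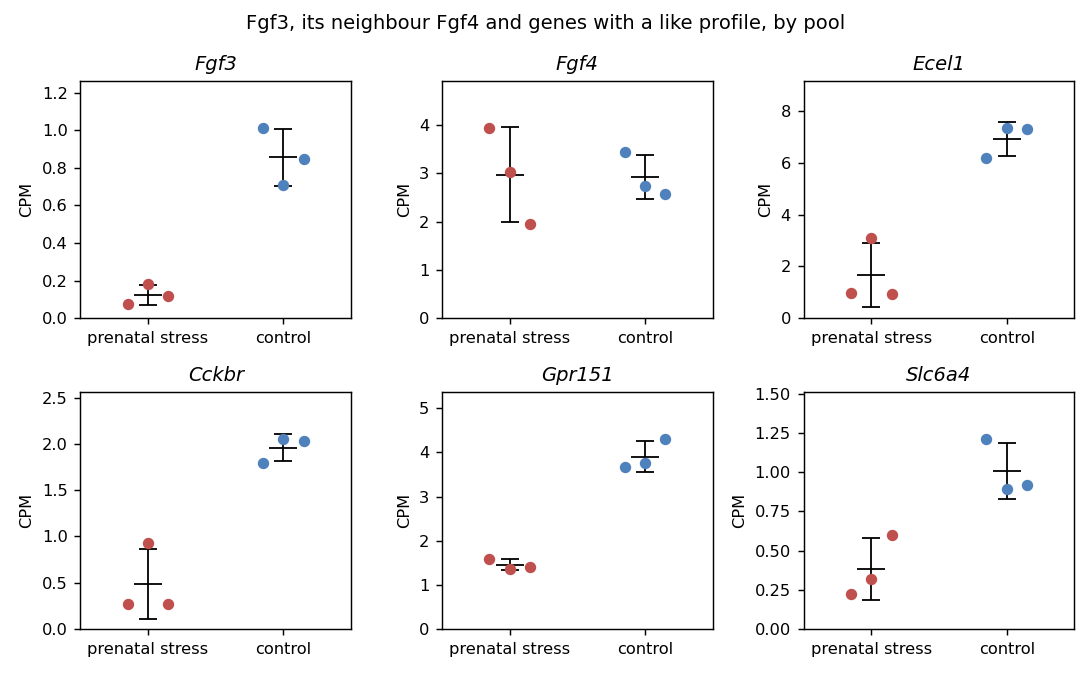
CPM of Fgf3, of its genome neighbour Fgf4 and of 4 genes with a profile near that of Fgf3, with prenatal stress pools left and control pools right; points are pools, and the bar and whiskers are mean ± SD (n = 3). Fgf3 stood at 0.0775 to 0.182 CPM in PS pools and 0.709 to 1.01 CPM in CT pools, while the Fgf4 pools overlapped.

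Fgf3 lies next to Fgf4 and then Fgf15 in the RefSeq order of genes on mouse chromosome 7, with Ano1 and Fadd on its other side. Fgf4, a ligand of early embryo and limb growth, had 3.93, 3.03 and 1.96 CPM in PS pools, against 3.44, 2.74 and 2.58 CPM in CT pools (log2 fold change 0.03 ± 0.25 SE, edgeR adjusted p = 0.979). Its groups overlapped, and its 95% interval ran from -0.55 to 0.61 and so excluded a fall of the size fitted for Fgf3. The ratio of Fgf3 to Fgf4 in CPM was 0.0197 to 0.06 in the PS pools and 0.258 to 0.329 in the CT pools. The chloride channel Ano1 stood at 16.1 ± 1.03 CPM in PS pools and 16.1 ± 1.33 CPM in CT pools (SD, n = 3 each), and the death receptor adaptor Fadd at 2.39 ± 0.416 CPM in PS pools and 2.25 ± 0.388 CPM in CT pools. Fgf15 had 1 count in all PS pools together and 1 in all CT pools together. Gm26793, a noncoding RNA between Fgf4 and Fgf15, had 0, 0 and 1 counts in PS pools and 5, 2 and 4 counts in CT pools, too few to be tested.

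The promoter windows of this neighbouring pair are shown because Fgf3 passed the test and the next gene along did not. Both are RefSeq sequences on build GRCm38.p6, plus strand, 250 bases before to 50 after the start, at chr7:144838362-144838661 for Fgf3 and chr7:144861136-144861435 for Fgf4. Capitals mark any match to the TATA box TATAAA, the AP-1 site TGACTCA, the cAMP response element TGACGTCA or the GC box GGGCGG on either strand.
Fgf3: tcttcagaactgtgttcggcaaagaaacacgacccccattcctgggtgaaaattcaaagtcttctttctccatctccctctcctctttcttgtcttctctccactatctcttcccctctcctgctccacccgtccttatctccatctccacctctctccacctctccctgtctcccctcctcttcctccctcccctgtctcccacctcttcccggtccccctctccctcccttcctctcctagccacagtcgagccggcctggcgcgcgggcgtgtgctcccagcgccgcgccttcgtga
Fgf4: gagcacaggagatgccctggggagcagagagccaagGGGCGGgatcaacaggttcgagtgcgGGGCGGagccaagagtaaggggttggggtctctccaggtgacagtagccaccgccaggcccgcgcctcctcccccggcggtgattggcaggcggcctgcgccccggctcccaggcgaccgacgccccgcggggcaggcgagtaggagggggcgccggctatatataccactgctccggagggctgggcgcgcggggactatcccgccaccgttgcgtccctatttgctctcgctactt
The Fgf3 window is a long run of C and T before the start, with 59.3% G and C, and holds none of these letters. The Fgf4 window has 69.7% G and C and holds 2 GC boxes, 214 and 188 bases before the start. Among all 32851 promoter windows, 13.6% held the TATA box, 5.2% the AP-1 site, 1.79% the cAMP response element and 35.7% the GC box. Only these exact letters were searched, so a like stretch such as tatatata in the Fgf4 window is not marked. A match or its lack says nothing here about binding of a factor.

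Genes with a clone or predicted name were left out of the search for profiles near that of Fgf3. Distance was the root mean square difference of centred log2 CPM over the 6 pools. Among the other genes tested, the nearest were Ecel1 (0.42), Cckbr (0.43), Anxa10 (0.52), Gpr151 (0.70) and Slc6a4 (0.70). Ecel1 is an endopeptidase-like protein induced in injured neurons, Cckbr is a cholecystokinin receptor, Anxa10 is an annexin, Gpr151 is an orphan receptor and Slc6a4 is the serotonin transporter. Ecel1 had 0.968, 3.08 and 0.93 CPM in PS pools, against 6.18, 7.33 and 7.3 CPM in CT pools. Cckbr had 0.271, 0.925 and 0.271 CPM in PS pools, against 1.79, 2.05 and 2.03 CPM in CT pools. Anxa10 had only 2, 4 and 0 counts in PS pools, against 16, 10 and 13 counts in CT pools. It reached the low-count cutoff of 0.148 CPM only in CT pools, so its nearness rests on few reads. PS pool 2 was the highest PS pool for Fgf3, Ecel1 and Cckbr. Slc6a4 had 0.22, 0.319 and 0.6 CPM in PS pools, against 1.21, 0.893 and 0.918 CPM in CT pools. Gpr151 averaged 1.45 ± 0.123 CPM in PS pools and 3.91 ± 0.346 CPM in CT pools (SD, n = 3 each; log2 fold change -1.43 ± 0.13 SE, edgeR adjusted p = 0.0147). It lost its call without PS pool 1, 2 or 3 or CT pool 2 or 3 (adjusted p = 0.0682, 0.0627, 0.0698, 0.0768 and 0.0511). The other 4 did not pass over all genes (adjusted p = 0.244 to 0.29), though Ecel1 and Cckbr passed without PS pool 2 (-2.87, adjusted p = 0.0044, and -2.85, adjusted p = 0.0127). Ecel1 also passed with no low-count filter (adjusted p = 0.0449) and in DESeq2 (adjusted p = 0.0166), and its adjusted p ran from 0.0044 to 0.686 over 16 alternatives, against 0.0127 to 0.835 over 15 for Cckbr. Nearness was measured in the same pools that chose Fgf3, so it is a description.

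Markers of the injury response of sensory neurons differed between the groups in their summed level. The 10 markers summed to 353, 359 and 357 CPM in PS pools, against 437, 430 and 440 CPM in CT pools. Most of each sum came from Gap43 and Jun, and neither was called. Gap43 stood at 165 to 173 CPM in PS pools and 197 to 210 CPM in CT pools, and Jun at 99.3 to 105 CPM and 91.9 to 99.1 CPM. Of the 10 markers, 9 had negative values and 4 were called lower (Atf3, Sprr1a, Gal and Gpr151), beside 9618 negative of 20146 and 0.0447% called lower over all genes tested. Jun had a positive value of 0.09. The list was chosen with that result known. Ecel1 and Gpr151 are among the 10. Satellite glia markers summed to 2249 to 2375 CPM in PS pools and 2546 to 2734 CPM in CT pools, with 6 of 6 negative and 0 called by edgeR. Schwann cell (7 of 7), skeletal muscle (5 of 5) and spinal cord (8 of 9) markers were mostly negative too, though their sums overlapped. The muscle values rest on CT pool 3, at a summed 1967 CPM. CT pool 1, at 12.7 CPM, was below the PS pools, at 25.8 to 39.8 CPM. Bone and cartilage, macrophage, and endothelial and mural markers had 4 of 5, 3 of 5 and 3 of 6 negative. Fibroblast and marrow markers had 2 of 7 and 0 of 7 negative. The sensory neuron sums also did not overlap, with 3 of 8 negative. The part of the injury response or of satellite glia in the Fgf3 result was not tested.

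The other secreted ligands had closely matched levels in both groups. Fgf1, acidic FGF, which lacks a secretion signal and is abundant in sensory and motor neurons, had 773, 737 and 730 CPM in PS pools, against 782, 769 and 763 CPM in CT pools. The groups overlapped, and the log2 fold change was -0.05 ± 0.03 (SE; edgeR adjusted p = 0.641). Its 95% interval of -0.13 to 0.03 allows a small difference in either direction.
Fgf2, basic FGF, a broad mitogen of neural and vascular cells, had 19.3, 20.6 and 20.4 CPM in PS pools, against 22, 22.1 and 19.8 CPM in CT pools (-0.08, 95% interval -0.22 to 0.05, adjusted p = 0.638). Its exons overlap those of Nudt6 on the opposite strand, and Nudt6 stood at 3.62 to 4.33 CPM, so reads of this pair could be shared if the strand was not used in counting. The transcript listed as Fgf2os had 1 to 6 counts a pool.
Fgf7, keratinocyte growth factor, a product of mesenchymal cells, had 11, 10.8 and 8.64 CPM in PS pools, against 11.5, 9.74 and 9.32 CPM in CT pools (95% interval -0.28 to 0.28, adjusted p = 0.997). Fgf9, a neuron-derived ligand first known as a glia-activating factor, had 16.8, 18.9 and 17.8 CPM in PS pools, against 18, 19.3 and 17.7 CPM in CT pools (95% interval -0.18 to 0.10, adjusted p = 0.86). In both genes the groups overlapped.

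The 2 homologous factors differed greatly in level but not detectably between groups. Fgf13, which binds sodium channels and is carried by many sensory neurons, had 642, 594 and 652 CPM in PS pools, against 660, 638 and 612 CPM in CT pools. Its log2 fold change was -0.02 ± 0.05 (SE; 95% interval -0.13 to 0.09, edgeR adjusted p = 0.93). Fgf14, its relative best known in cerebellar neurons, had 1.21, 2.21 and 1.2 CPM in PS pools, against 0.966, 1.93 and 1.54 CPM in CT pools. Its interval was wide, at -0.70 to 0.83 (adjusted p = 0.962). Its exons overlap those of Gm28932 on the opposite strand, at 0.329 to 0.49 CPM. PS pool 2 and CT pools 2 and 3 were the high pools for Fgf14, the same pools that were high in spinal cord markers.

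Among the receptors, Fgfr1, the receptor of broadest distribution, had 249, 248 and 226 CPM in PS pools, against 232, 227 and 225 CPM in CT pools. The groups overlapped, with a log2 fold change of 0.08 ± 0.04 (SE; 95% interval -0.02 to 0.18, edgeR adjusted p = 0.544). The SD was 5.41% of the mean among PS pools and 1.5% among CT pools.
Fgfr2 and Fgfr3, which in the central nervous system mark oligodendrocyte and astrocyte lineages, varied more within each group than between the groups. Fgfr3 had 3.77, 9.8 and 5.05 CPM in PS pools, against 3.66, 11.9 and 8.11 CPM in CT pools (-0.34 ± 0.47 SE, 95% interval -1.45 to 0.76, adjusted p = 0.839). Fgfr2 had 4.35, 6.75 and 3.37 CPM in PS pools, against 3.96, 6.5 and 4.7 CPM in CT pools (-0.06 ± 0.28 SE, 95% interval -0.72 to 0.59, adjusted p = 0.956). An exon of Fgfr2 overlaps Ctbp2 on the same strand, at 10.7 to 12.3 CPM, so its count is uncertain to that extent.
For both receptors the 3 highest pools were again PS pool 2 and CT pools 2 and 3. The oligodendrocyte gene Mog had 0.504, 9.92 and 1.36 CPM in PS pools, against 0.259, 7.56 and 5.99 CPM in CT pools, and the glycine transporter Slc6a5 of spinal interneurons had 0.659, 14.0 and 1.34 CPM in PS pools, against 0.404, 25.0 and 6.33 CPM in CT pools. Within the pools low in these markers, Fgfr3 stood at 3.77 and 5.05 CPM in PS pools and 3.66 CPM in the CT pool. Within the high pools it stood at 9.8 CPM in the PS pool and 11.9 and 8.11 CPM in the CT pools. The part of spinal cord RNA in the levels of Fgfr2, Fgfr3 and Fgf14 was not tested.
For Fgf3 the low pools gave 0.0775 and 0.116 CPM under PS and 1.01 CPM under CT, and the high pools 0.182 CPM under PS and 0.709 and 0.849 CPM under CT. Leaving out the 3 high pools leaves 2 PS pools and 1 CT pool, and edgeR then called 0 genes (1110 had an unadjusted p under 0.05), so that fit says nothing about Fgf3.

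**Figure D2:**
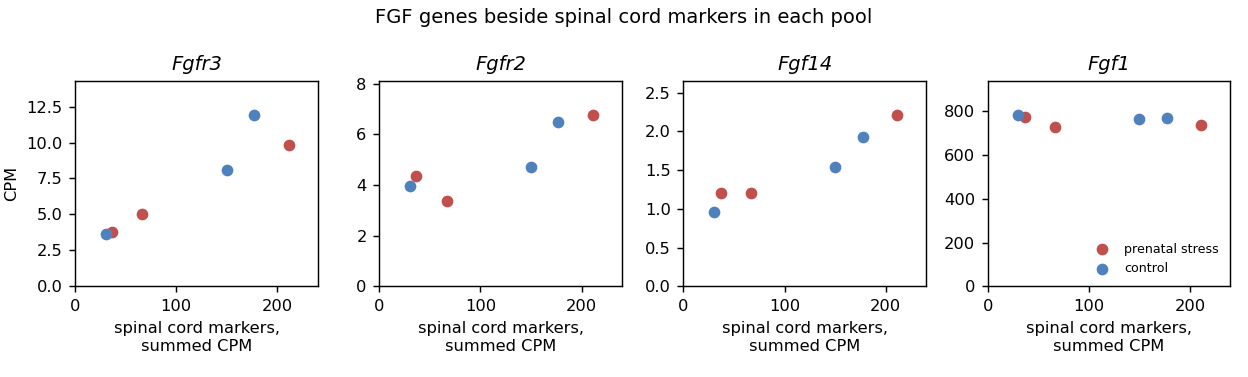
CPM of Fgfr3, Fgfr2, Fgf14 and Fgf1 in each pool (vertical axes from 0) against the summed CPM of 10 spinal cord markers (horizontal axis); prenatal stress pools are red and control pools blue. Fgfr3 stood at 8.11 to 11.9 CPM in the 3 pools above 100 CPM of markers and at 3.66 to 5.05 CPM in the others, while Fgf1 stayed at 730 to 782 CPM.

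**Figure D3:**
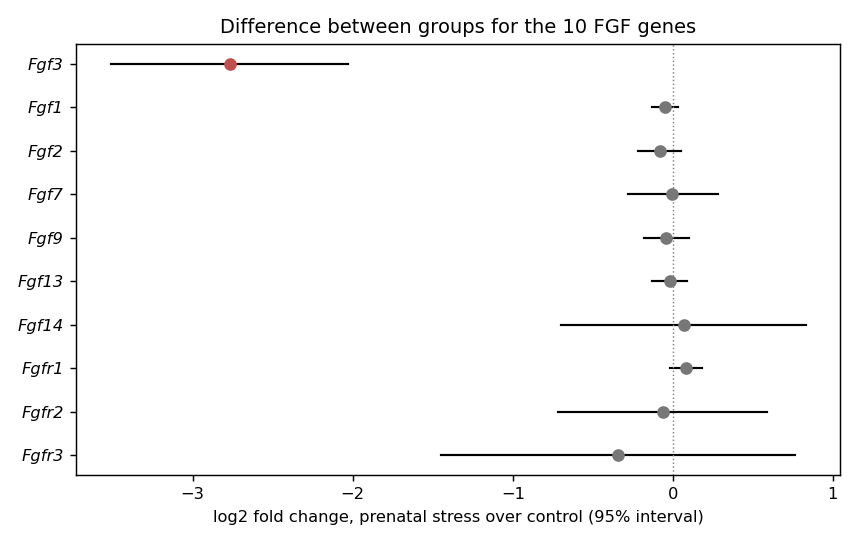
Log2 fold change of prenatal stress over control for the 10 FGF genes (point) with its 95% interval (line) from edgeR's quasi-likelihood fit (3 pools a group); red marks the gene called over all genes. Fgf3 stood at -2.77 and the other 9 intervals include 0.

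Of the 9 genes other than Fgf3, 0 were called by edgeR and 0 had an unadjusted p under 0.05, against 11.1% of all genes tested. DESeq2 and limma voom also called 0 of them, with Fgf14 given no adjusted p by DESeq2. Their log2 fold changes ran from -0.34 to 0.08 with a median of -0.04, beside 0.01 for all genes tested. The pools did not overlap for 1 of the 10, Fgf3, and for 18.1% of all genes tested, 8.76% with PS lower and 9.33% with PS higher. A difference that misses the threshold is not shown to be absent. With the replicate number as a block, which takes pools of the same number as pairs, the 95% interval narrowed to -0.38 to 0.50 for Fgf14, -0.43 to 0.24 for Fgfr2 and -0.65 to 0.02 for Fgfr3 (log2 fold change -0.31 ± 0.14 SE, edgeR adjusted p = 0.438). With the block and a GC and length offset, Fgf2, Fgfr1 and Fgfr3 had an unadjusted p of 0.0444, 0.0287 and 0.0459, at values of -0.12, 0.08 and -0.30, and none passed over all genes (edgeR adjusted p = 0.381, 0.332 and 0.385).

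Per kb of the longest annotated transcript, which allows genes to be compared, the 10 genes fell into clear tiers. Over all 6 pools, Fgf13 averaged 253 ± 9.99 CPM per kb and Fgf1 191 ± 5.24 CPM per kb (SD, n = 6), above 99.3% and 99.0% of the genes tested that have a length. Fgfr1 followed at 46.6 ± 2.18 CPM per kb, above 92.8% of genes. Fgf9 (5.03 ± 0.244), Fgf7 (3.81 ± 0.417) and Fgf2 (3.47 ± 0.188 CPM per kb) lay near the middle, and Fgfr3 (1.66 ± 0.804) and Fgfr2 (1.12 ± 0.312 CPM per kb) below it. Fgf14 averaged 0.418 ± 0.133 CPM per kb and Fgf3 0.213 ± 0.179 CPM per kb, above 18.6% and 10.7% of genes.
The pool ranges of Fgf7 and Fgf2 overlapped, as did those of Fgfr3 and Fgfr2 and those of Fgf14 and Fgf3, so these neighbours in the order are not separated. Every other neighbouring pair was apart in all 6 pools. Fgf3 stood at 0.0545 ± 0.023 CPM per kb in PS pools and 0.372 ± 0.0653 CPM per kb in CT pools (SD, n = 3 each), which put it above Fgf14 in CT pool 1 (0.439 against 0.268 CPM per kb) and below it in the other 5 pools.

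**Figure D4:**
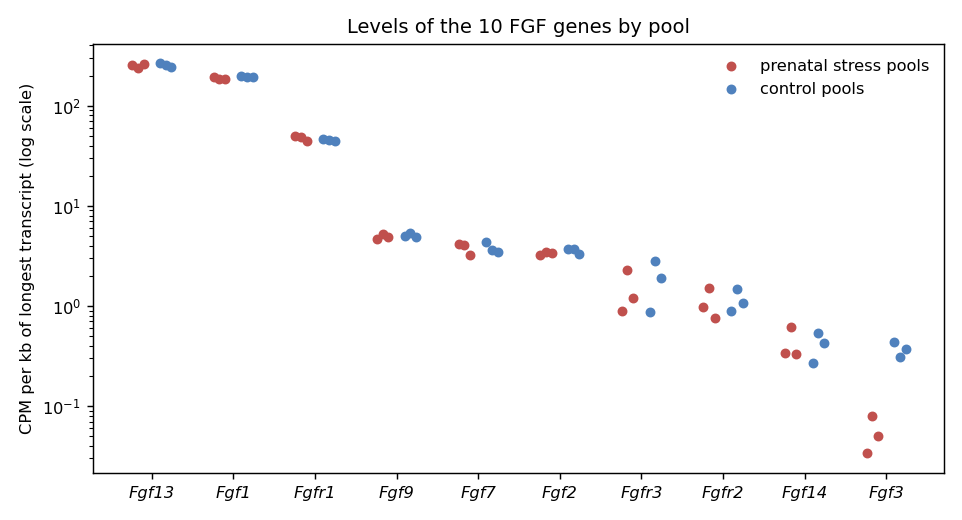
Level of each of the 10 FGF genes in each pool as CPM per kb of the longest annotated transcript, on a log scale, with prenatal stress pools (red) left of control pools (blue) for each gene. Fgf13 and Fgf1 led at 183 to 264 CPM per kb, and Fgf3 spread from 0.0337 to 0.439 CPM per kb.

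The rest of the FGF family was measured too. In the files were 22 Fgf genes and 4 Fgfr genes, of which 20 were tested. Fgf12, also a homologous factor, was abundant at 465 ± 30.2 CPM in PS pools and 452 ± 1.68 CPM in CT pools (SD, n = 3 each; 0.04 ± 0.05 SE, edgeR adjusted p = 0.792). Fgf11, of the same subfamily, stood at 18.2 ± 1.92 CPM in PS pools and 19.2 ± 3.61 CPM in CT pools. Fgf18 stood at 7.9 ± 0.707 CPM in PS pools and 8.29 ± 0.359 CPM in CT pools, Fgf5 at 2.2 ± 0.0378 CPM in PS pools and 2.06 ± 0.207 CPM in CT pools, and Fgf22, a ligand known at synapses, at 2.02 ± 0.264 CPM in PS pools and 1.59 ± 0.381 CPM in CT pools (0.35, adjusted p = 0.564). Fgf10, Fgf17 and Fgf23, the hormone of phosphate balance, stood at 0.152 to 0.77 CPM in every pool. The other 6 secreted ligands (Fgf6, Fgf8, Fgf15, Fgf16, Fgf20 and Fgf21) had 0 to 18 counts over the 3 pools of a group and were not tested.
Among the receptors outside the 10, Fgfr4 stood at 0.113 ± 0.0488 CPM in PS pools and 0.172 ± 0.00182 CPM in CT pools, and Fgfrl1, a receptor without a kinase domain, at 5.67 ± 1.3 CPM in PS pools and 6.7 ± 0.311 CPM in CT pools. Klotho (Kl), the co-receptor for Fgf23, had 2.87, 2.23 and 2.48 CPM in PS pools, against 1.93, 1.29 and 1.79 CPM in CT pools. Its groups did not overlap, with PS higher, nor did those of Fgfr4, with PS lower. That is 50% of the 4 genes on this list, against 18.1% of all genes tested. Kl did not pass over all genes (0.59 ± 0.18 SE, edgeR adjusted p = 0.364). Its relative Klb stood at 0.158 ± 0.049 CPM in PS pools and 0.129 ± 0.057 CPM in CT pools.

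Genes that carry or read out FGF signals were taken from lists drawn up for the pathway. Over the 8 lists of other FGF genes, partners and targets, 82 of 89 genes could be tested and edgeR called 0. Of these, 17 (20.7%) had an unadjusted p under 0.05, against 11.1% of all genes, 11 with positive and 6 with negative values. Limma voom called 0. The DESeq2 Wald test gave an adjusted p to 69 of the list genes and called 5 of those 69. It called 2.64% of all genes it gave an adjusted p. The 5 were Flrt3, Sdc1, Etv5 and Shc1 with negative values and Etv1 with a positive value. The median log2 fold change over the 82 was 0.01, equal to that of all genes tested.
Of 17 binding proteins and cell surface partners, 11 had negative values (median -0.07). Flrt3, a membrane protein that binds Fgfr1 and is also on the injury list, had 19.9, 18.8 and 22 CPM in PS pools, against 27.5, 25.2 and 26.2 CPM in CT pools (-0.38 ± 0.07 SE, edgeR adjusted p = 0.173). Sdc1, a heparan sulfate proteoglycan that holds ligands at the surface, had 37.3, 35 and 38.5 CPM in PS pools, against 51, 42.5 and 47.6 CPM in CT pools (-0.35 ± 0.07, adjusted p = 0.234). Gpc6, a glypican, stood at 8.84 ± 0.888 CPM in PS pools and 7.18 ± 0.53 CPM in CT pools (0.30, adjusted p = 0.366). The groups did not overlap for any of these 3, which were picked by smallest p, for 47.1% of the list and for 18.1% of all genes tested.
Of 12 tested feedback and target genes, 7 had negative values (median -0.01). Etv5, a transcription factor that FGF signals switch on, had 132, 123 and 118 CPM in PS pools, against 148, 157 and 143 CPM in CT pools (-0.27 ± 0.05 SE, edgeR adjusted p = 0.234). Its relative Etv1, which proprioceptors also express, had 172, 159 and 170 CPM in PS pools, against 153, 144 and 151 CPM in CT pools (0.16 ± 0.04, adjusted p = 0.294). The inhibitor Spry4 stood at 31.8 ± 0.648 CPM in PS pools and 34.4 ± 1.13 CPM in CT pools (-0.11, adjusted p = 0.381). The groups did not overlap for these 3, which were picked by smallest p, for 41.7% of the list and for 18.1% of all genes tested. Dusp6 stood at 25.4 ± 1.71 CPM in PS pools and 27.1 ± 1.11 CPM in CT pools (-0.10), and Etv4 at 6.14 ± 0.873 CPM in PS pools and 6.14 ± 0.349 CPM in CT pools, and both overlapped.
The 18 signalling genes had a median of 0.01, from -0.17 to 0.15. The adaptor Shc1 stood at 187 ± 5 CPM in PS pools and 210 ± 13 CPM in CT pools (-0.17, edgeR adjusted p = 0.331), the exchange factor Sos1 at 131 ± 7.44 CPM in PS pools and 118 ± 3.94 CPM in CT pools (0.15, adjusted p = 0.373) and the kinase subunit Pik3ca at 95.6 ± 6.64 CPM in PS pools and 87.7 ± 1.73 CPM in CT pools (0.12, adjusted p = 0.446). Among 11 heparan sulfate synthesis genes, with values from -0.10 to 0.15, the epimerase Glce stood at 73.3 ± 2.49 CPM in PS pools and 66.2 ± 0.709 CPM in CT pools (0.15, adjusted p = 0.275). The sulfotransferases Ndst2 (-0.10) and Hs2st1 (-0.04) had adjusted p of 0.701 and 0.715.
All 11 sodium channel subunits that the homologous factors act with or beside had positive values, from 0.01 to 0.22, with a median of 0.11 and 0 called by edgeR. Of these, 4 (36.4%) had an unadjusted p under 0.05, against 11.1% of all genes tested, of which 10528 of 20146 had positive values. Scn11a, a channel of nociceptors, had 764, 726 and 826 CPM in PS pools, against 691, 719 and 680 CPM in CT pools (0.15 ± 0.05 SE, edgeR adjusted p = 0.38). Scn3a, an embryonic channel type, had 8.61, 8.84 and 8.81 CPM in PS pools, against 6.95, 7.66 and 7.94 CPM in CT pools (0.22 ± 0.07, adjusted p = 0.378). The subunit Scn2b stood at 71.4 ± 3.84 CPM in PS pools and 66.2 ± 0.448 CPM in CT pools (0.11, adjusted p = 0.429). Fgf12 and Fgf13 had values of 0.04 and -0.02 beside them.

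**Figure D5:**
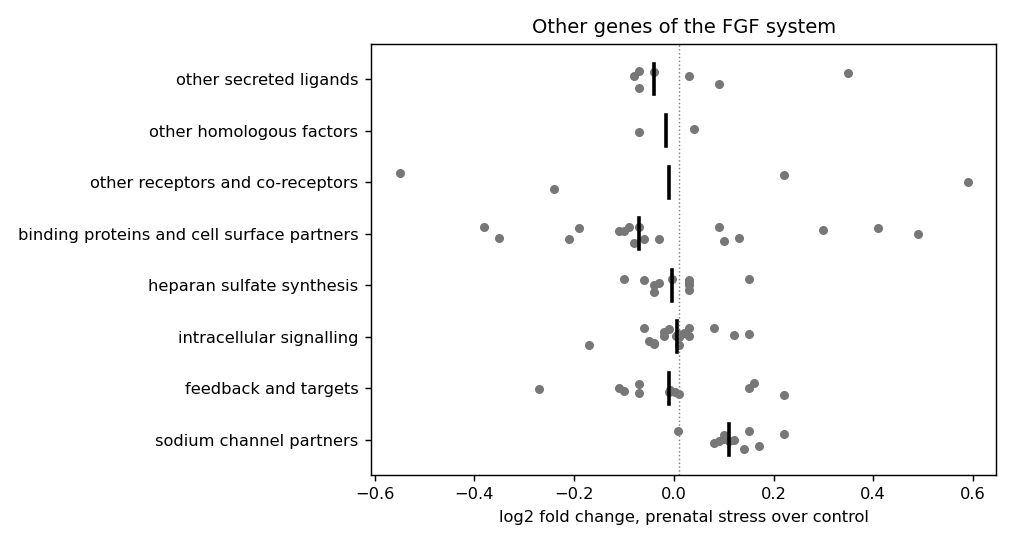
Log2 fold change of prenatal stress over control for each tested gene of 8 lists of other FGF system genes (points), with the list median (black bar) and the median of all genes tested (dotted line, 0.01). The sodium channel subunits all lie above 0, with a median of 0.11, and no gene shown was called over all genes.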

How the data were processed

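Poly-A selected, stranded, paired-end libraries of 6 ganglion pools were counted per gene symbol. The deposited values were raw counts, unchanged by any normalization, per the values themselves. FastQC, STAR 2.4 and HTSeq 0.9.1 and the builds GRCm39 and mm10 are named in the submitters' processing notes. HTSeq's strand option and the build behind the counts were not given in the sources used here. Reads given to no gene (15.3% to 16.2% of a file) were left out. GENCODE M21 and RefSeq tables on GRCm38 served for symbols, transcript lengths, gene order and promoters, and 8 of the 10 genes had a promoter entry.

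The test was edgeR's, version 4.0.16 under R 4.3.3 (TMM, filterByExpr with a minimum count of 10, quasi-likelihood F test of PS against CT), after the procedure was checked on simulated data. The SE is the log2 fold change divided by the square root of F, and intervals use the t distribution of the fit. DESeq2 1.42.0 and limma 3.58.1 gave alternatives. The members, lists, tests and alternatives were chosen with earlier results of these data known. Named genes were the 10 members, relatives with a mean of at least 0.1 CPM in a group, any called and up to 3 genes of smallest p in each other list, the neighbours of Fgf3 and the 5 nearest profiles. Clone and predicted gene names were not eligible as nearest profiles.

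The titles number the pools as biological replicates 1 to 3 in both groups, without saying whether pools of the same number belong together. Across genes, pools that share a number deviated from their own group's mean together (r = 0.34, 0.22 and 0.13). Pools of unlike number were not compared in this way, so these values do not show that the pools are paired. Summed spinal cord markers were 36.7 and 30.4 CPM in PS and CT pools 1, 211 and 177 CPM in pools 2, and 66.6 and 150 CPM in pools 3. Their part in these correlations was not tested. The main test did not use the numbers, so its p-values ignore any pairing. The replicate block, an alternative, took the numbers to pair the pools. No pair of pools agreed within sampling noise (chi-square per degree of freedom 10.98 to 36.41 over 15 pairs). At these depths counting error is small for abundant genes such as Fgf1, where precision rests on there being 3 pools a group. For genes of a few CPM or less it can be as large as the spread between pools. Fgf5, for one, had 115 to 171 counts in PS pools and an SD of 1.72% of the mean.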

Additional observations from a re-analysis of the deposited data

How the results depend on the processing

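Of the 10 genes, 1 was called in edgeR and also with DESeq2 size factors, no low-count filter, limma voom, a robust fit and a GC and length offset. The count was 0 with the replicate block (Fgf3 adjusted p = 0.091), with the block and the offset together (0.0704), with a mean of at least 1 CPM (Fgf3 not tested), with DESeq2's Wald test (no adjusted p for Fgf3, unadjusted p = 5.47e-09) and without the 3 pools high in spinal cord markers, an alternative chosen after seeing the data. It was 0 to 0 without any 1 pool. The block changed no other call among the 10 genes, the other FGF system genes, the neighbours of Fgf3 and the 5 nearest profiles. Over all genes it called 22, of which 18 were among the 26 of the main test. Atf3, Sprr1a and Gal were not followed through the alternatives. The cause of these losses was not tested.
Over all genes, 26 were called, 49 with no low-count filter, 335 with DESeq2, 2 to 14 without 1 pool and 0 without those 3 pools. Other FGF system genes called went to 5 with DESeq2, the only alternative above 0. The order of levels was the same with DESeq2 size factors and with merged exon length.
Direction turned only in values that were not called. With limma voom Fgf7 was at 0.08, Fgf14 at -0.07, Fgf23 at 0.01 and Ano1 at 0.03. With the GC and length offset Fgf7 was at 0.0034 and Fgf23 at 0.01, and Fgf23 at 0.02 with the block added. Fgf4 was at -0.01 with the block. Without the 3 spinal cord pools Fgfr3 was at 0.27, Fgf4 at -0.22, Fgf10 at 0.14, Fgf17 at 0.60, Fgf23 at 0.15, Fgf11 at 0.02 and Fadd at -0.11. Without 1 pool the ranges were -0.07 to 0.09 for Fgf7, -0.05 to 0.02 for Fgf13, -0.29 to 0.29 for Fgf14, -0.39 to 0.15 for Fgfr2, -0.84 to 0.07 for Fgfr3, -0.23 to 0.25 for Fgf4, -0.68 to 0.71 for Fgf10, -0.40 to 0.14 for Fgf17, -0.16 to 0.11 for Fgf23, -0.16 to 0.08 for Fgf11, -0.00996 to 0.09 for Fgf12, -0.05 to 0.22 for Fadd and -0.07 to 0.05 for Ano1.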
